A study of Drosophila melanogaster with 3 samples.

Results

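The regions described here are the places where GFP-tagged CG4424, a zinc finger protein of Drosophila melanogaster, was found at a promoter that is not shared by a divergent pair of protein-coding genes. They were taken from the authors' optimal list, the regions kept after a reproducibility threshold on the irreproducible discovery rate. A region was a member when its summit, the position of highest signal, was at most 500 bp from an annotated transcript start. It was left out when a start of a divergent coding pair also lay at that distance or nearer. In such a pair the start of a gene on the minus strand lies 0 to 1000 bp below the start of another coding gene on the plus strand. The rule used annotation and position and did not use signal. It kept 1776 of 6420 regions, or 27.7%, which is 59.1% of the 3004 summits within 500 bp of any start. The other promoter summits, 1228 in number, lay at divergent coding pairs, and 3416 summits lay outside promoter windows. The data are chromatin immunoprecipitation and sequencing with an anti-GFP antibody in whole embryos of mixed sex aged 0 to 16 h. All samples came from a single transgenic line that stably expresses CG4424 with GFP at its C terminus, so the series has 1 group of 3 biological replicates with 1 technical replicate each. Regions were called against a control alignment, per the deposited notes, and read depth was not used here. Signal is the authors' value per region, of unstated scale, and was compared within a list only. The signal of the members ran from 186.2 to 12375 in the pooled list, with a median of 329.0 and quartiles of 234.6 and 564.5. As a measure of spread, the same rule was applied to the 6420 strongest regions of each replicate, and it kept 1805, 1820 and 1714 regions, or 1780 ± 57.4 (SD, n = 3). Because the embryos were whole and of many stages, the cell types in which a region was bound cannot be told apart.

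A promoter is the stretch of DNA around a transcript start on which the transcription machinery assembles. In the compact fly genome many promoters are divergent and serve a gene on each strand, while the promoters considered here are not shared by such a pair of coding genes. Fly promoters carry short elements that sequence-specific proteins read. The DNA replication-related element (DRE) is bound by DREF, its inner part CGATA is the core of the BEAF-32 site, Motif 1 is bound by M1BP, and these elements are known from housekeeping promoters. GAGA factor binds GAGAG repeats, often at developmental promoters, and CTCF and BEAF-32 are insulator proteins. CG4424 belongs to the ZAD family of zinc finger proteins, several of which act at promoters and insulators.

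Sequences of 12 members are shown because they hold the elements on which the comparisons below turn. Each is the window of 101 bp within 50 bp of the summit, from the RefSeq assembly of build dm6, written 5′ to 3′ on the strand of the gene, with each match to the named element in capitals on either strand. For each element the strongest members on 2L, 3L, 3R, 4 and X with at most 30 bases of annotated untranslated sequence were taken. Members on the remaining chromosome arm were not considered, so a stronger holder of an element may lie there. The DRE, TATCGATA, stands in eEF1gamma at chr3R:29220087-29220187 on the plus strand and in kibra at chr3R:14724320-14724420 on the minus strand. The BEAF-32 core, CGATA, stands in CG14100 at chr3L:19590577-19590677 on the minus strand and in E23 at chr2L:3355052-3355152 on the minus strand. Motif 1 stands in CG42271 at chrX:14234193-14234293 on the minus strand and in CG4080 at chr3L:9399210-9399310 on the minus strand. Ohler motif 7, a core promoter element, stands in pes at chr2L:7994311-7994411 on the minus strand and in tin at chr3R:21378730-21378830 on the plus strand. The CTCF core, read as AG, then A or G, then G or T, then GGC, stands in Hsp27 at chr3L:9383872-9383972 on the plus strand and in elav at chrX:523437-523537 on the minus strand. The GAGA element, GAGAG, stands in tna at chr3L:10857520-10857620 on the plus strand and in bbx at chrX:21367803-21367903 on the plus strand.
eEF1gamma: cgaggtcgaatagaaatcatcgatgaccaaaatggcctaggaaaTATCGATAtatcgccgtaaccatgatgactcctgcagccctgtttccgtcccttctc
kibra: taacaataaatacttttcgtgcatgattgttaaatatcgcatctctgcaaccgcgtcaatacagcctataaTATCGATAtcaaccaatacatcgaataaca
CG14100: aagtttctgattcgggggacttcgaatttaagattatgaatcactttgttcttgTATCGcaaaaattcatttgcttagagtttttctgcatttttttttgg
E23: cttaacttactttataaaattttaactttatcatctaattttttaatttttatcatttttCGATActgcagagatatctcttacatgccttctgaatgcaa
CG42271: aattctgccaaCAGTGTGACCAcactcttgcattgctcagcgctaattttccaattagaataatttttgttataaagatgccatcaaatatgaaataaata
CG4080: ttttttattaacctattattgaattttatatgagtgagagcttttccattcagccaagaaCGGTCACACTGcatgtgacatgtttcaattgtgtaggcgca
pes: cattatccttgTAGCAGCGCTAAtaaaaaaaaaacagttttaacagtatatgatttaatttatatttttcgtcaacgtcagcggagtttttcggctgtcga
tin: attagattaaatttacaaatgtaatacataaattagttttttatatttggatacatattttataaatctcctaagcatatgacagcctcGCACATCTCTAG
Hsp27: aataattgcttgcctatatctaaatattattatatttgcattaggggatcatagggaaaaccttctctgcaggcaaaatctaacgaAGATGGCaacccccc
elav: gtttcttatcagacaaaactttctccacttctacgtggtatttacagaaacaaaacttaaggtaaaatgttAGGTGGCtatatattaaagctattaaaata
tna: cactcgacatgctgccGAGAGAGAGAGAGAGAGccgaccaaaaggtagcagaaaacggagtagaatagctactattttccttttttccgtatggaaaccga
bbx: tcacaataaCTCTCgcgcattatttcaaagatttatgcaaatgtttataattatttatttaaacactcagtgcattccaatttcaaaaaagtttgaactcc
The genes have varied roles. eEF1gamma encodes a translation elongation factor, kibra a regulator of the Hippo pathway, E23 an ABC transporter of the ecdysone response, pes a scavenger receptor, tin the heart homeodomain factor, Hsp27 a small heat shock protein and elav a neuronal RNA-binding protein. The window of tna holds 7 overlapping matches to GAGAG in an unbroken GA repeat. The CGATA of CG14100, the Motif 1 of CG42271 and the GAGAG of bbx lie on the strand opposite to the gene.

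CG4424 lay mostly upstream of the starts. Of the members, 1465 (82.5%, exact 95% interval 80.6 to 84.2) had the summit upstream of the nearest start, and 311 (17.5%) at the start or downstream of it. The replicate lists gave 82.5%, 81.8% and 81.5%, or 81.9% ± 0.513 (SD, n = 3). The median position was 148 bp upstream, written -148 bp, with quartiles of -272 and -42 bp. The replicate medians were -142, -142 and -160 bp, or -148 ± 10.4 (SD, n = 3). In 793 members (44.7%) the summit lay within 200 bp upstream of the start. The signal was highest some way from the start. Its median was 416.2 in the 303 members at -300 to -200 bp and 371.4 in the 419 at -200 to -100 bp. In the 374 members just upstream of the start, at -100 to 0 bp, it was 272.1, and in the 135 members from 0 to 100 bp downstream it was 248.0. The weaker regions of the pooled list were placed differently. Among 21288 regions of the pooled list without overlap with the optimal list, 4113 met the same rule (19.3%), and 59.3% of these lay upstream, at a median of -48 bp. The upstream share of the members was higher, with an odds ratio of 3.24 (Fisher's exact test, two-sided, p = 1.1e-71). This test was not among those planned. It counts regions of the pooled list, so its p does not measure the spread between replicates. Regions and genes that lie near each other are not fully independent, here and in the tests that follow.

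**Figure D1:**
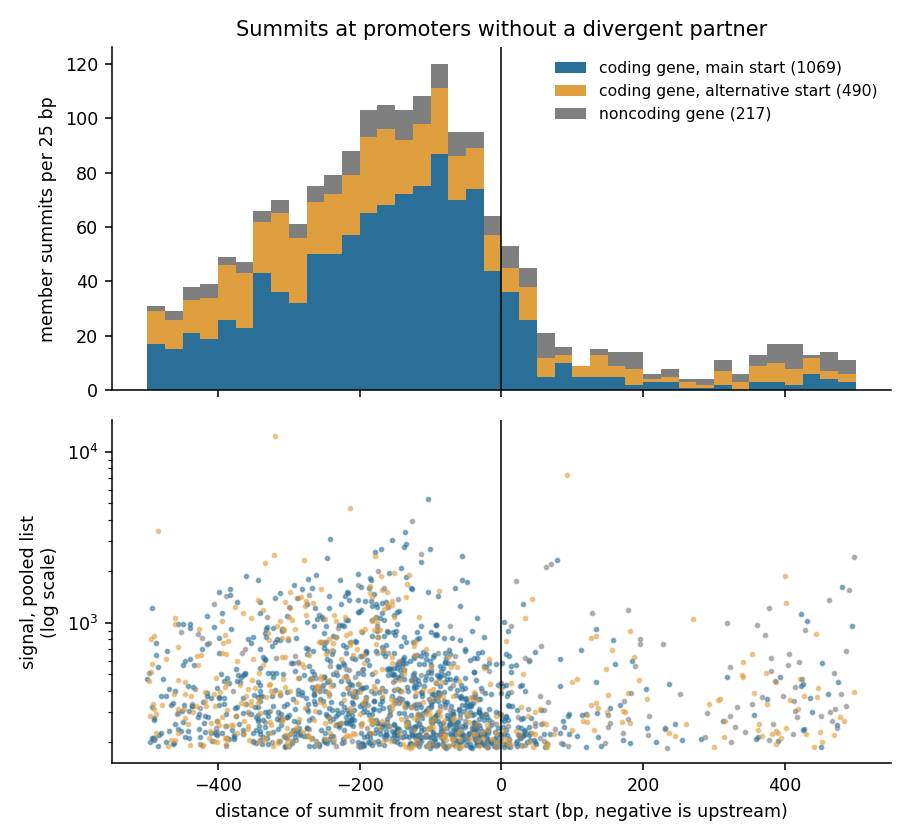
Upper panel, number of member summits per 25 bp by distance from the nearest start in bp, stacked by the kind of start; lower panel, signal of each member in the pooled list on a log axis against the same distance. The summits pile up over the 200 bp upstream of the start, and the strongest member, at tna, lies 319 bp upstream.

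Most members lay at the main start of a coding gene. A start counted as main when it was within 100 bp of the start of the canonical transcript of its gene. By this measure 1274 members (71.7%, exact 95% interval 69.6 to 73.8) had a main start as the nearest start, noncoding genes included. The replicate lists gave 70.9% ± 0.608 (SD, n = 3). The annotation has 23998 starts of 18164 genes, so most annotated starts are main starts too. The share among all starts was not computed, and 71.7% alone is no sign of a preference for main starts. The nearest start belonged to a coding gene in 1559 members (87.8%, interval 86.2 to 89.3), against 88.1% ± 0.358 over the replicates. Main starts of coding genes held 1069 members (60.2%), with a median position of -148 bp, 88.3% upstream and a median signal of 325.2. Alternative starts of coding genes held 490 members (27.6%) in 416 genes, with a median position of -180 bp, 80.0% upstream and a median signal of 342.2. Of these alternative starts, 308 lay downstream of the main start of the gene and 182 upstream of it, at a median of 2498 bp from it and over 10000 bp away in 125 cases. For 326 of the 490, a single annotated transcript began at the start.

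The strongest members were at tna, eIF4A and CG14100. tna encodes a trithorax group protein that acts with the Brahma chromatin remodelling complex. Its region had a signal of 12375 in the pooled list and of 2178, 6417 and 3809 in replicates 1, 2 and 3, each on the scale of its own list, and lay 319 bp upstream of an alternative start within an intron of the gene. eIF4A encodes the RNA helicase of translation initiation, and its region had a signal of 7358, with 1586, 3521 and 2246 in the replicates. That summit lay 93 bp downstream of the nearest start, in an exon. The region of CG14100 had a signal of 5314, with 1479, 2179 and 1687 in the replicates, and lay 103 bp upstream of the main start between genes. In all 3 the value was lowest in replicate 1 and highest in replicate 2, and the lists have separate scales. At px, a gene of wing vein patterning, the signal was 4666, with 1133, 2092 and 1486 in the replicates, 214 bp upstream of an alternative start. At ph-p, which encodes the Polycomb group protein Polyhomeotic, it was 3436, with 1040, 1584 and 1000 in the replicates, 484 bp upstream of an alternative start. otk, which encodes a receptor-like transmembrane protein, had 3388 at its main start, with 752.9, 1604 and 1066 in the replicates. The summits of these regions in the replicate lists lay close to the pooled ones. Relative to the pooled summit, that of tna moved by -20, -4 and 1 bp in replicates 1, 2 and 3, and that of px by -19, -12 and 2 bp.

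Of the next strongest members, most lay 50 to 350 bp upstream of a main start in the space between genes. CG18549 had a signal of 2904 with its summit at -135 bp, CG13921 had 2785 at -137 bp, CG31145 had 2706 at -170 bp and RluA-1, which encodes a pseudouridine synthase, had 2607 at -179 bp. CG1888 had 3097 at -242 bp, in an exon. Tina-1 had 3041 at -155 bp and Sox14, which encodes an HMG-box transcription factor, had 2409 at -246 bp. Fkbp14, which encodes a peptidyl-prolyl isomerase, had 2686 at -101 bp, in an intron of the gene, and MFS18 had 2472 at -55 bp. The remaining strong coding members were at alternative starts inside introns. larp, which encodes a La-related RNA-binding protein, had 2509 at -321 bp, and gish, which encodes a casein kinase, had 2474 at -178 bp. Within each replicate list all 11 of these regions had a lower signal than tna. They were picked by the pooled signal that also ranks tna first, so this is a description only. The weakest members were at rdgBbeta with 186.4, Usp7 with 186.3 and aralar1 with 186.2. The region at Usp7 was overlapped by no region among the strongest of any replicate.

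**Figure D2:**
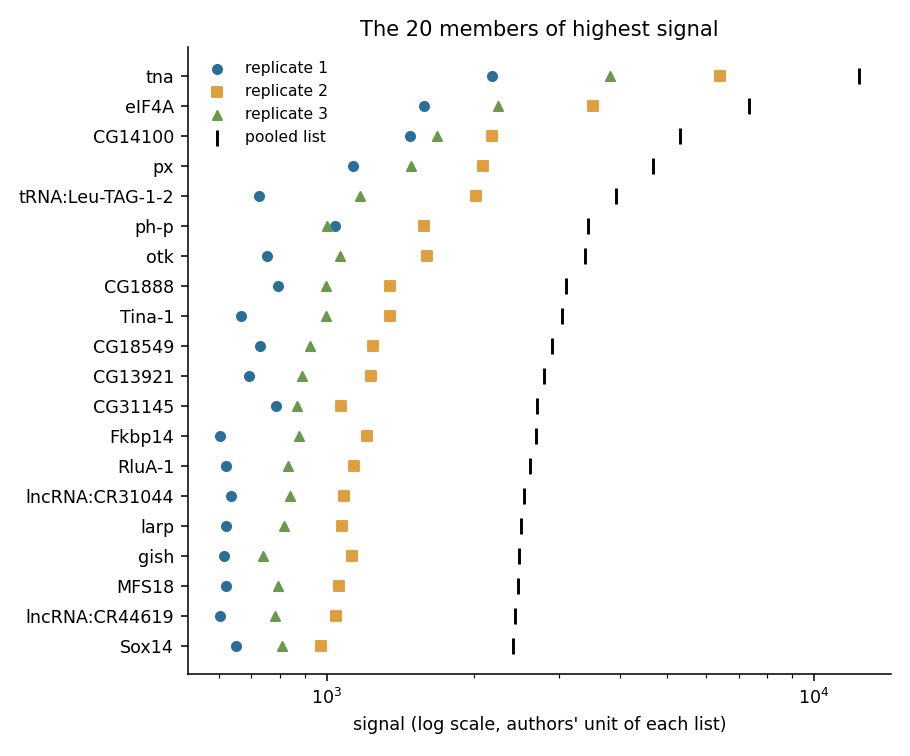
Signal on a log axis of the 20 members of highest signal, with 1 row per region named by the gene of the nearest start; circles, squares and triangles are replicates 1, 2 and 3, each on the scale of its own list, and vertical ticks are the pooled list. The pooled values fall from 12375 at tna to 2409 at Sox14, and replicate 2 gives the highest replicate value in each row.

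Noncoding genes had the nearest start at 217 members (12.2%), where 59.4% of the summits lay upstream, at a median of -72.0 bp and with a median signal of 323.0. At coding genes 85.7% lay upstream, and the difference was not tested. Long noncoding and other ncRNA genes made up 192 of them, among which 151 are named as lncRNA, 27 as antisense RNA and 3 as microRNA genes. The strongest were lncRNA:CR31044, with a signal of 2539 at -113 bp (637.0, 1082 and 839.2 in the replicates), and lncRNA:CR44619, with 2429 at 497 bp downstream (603.2, 1046 and 781.8). Transfer RNA genes had 10 members. The region at tRNA:Leu-TAG-1-2 had a signal of 3931 at -126 bp, with 725.5, 2020 and 1170 in the replicates, and a further summit at -379 bp had 401.3. tRNA:Tyr-GTA-1-8 had 1669 at -202 bp, while the median of the 10 was 319.8. Small nuclear RNA genes had 6 members with a median of 246.8, at spliceosomal RNA genes and at snRNA:7SKa, whose RNA regulates transcription elongation. Of these snRNA:U6:96Ac was the highest with 340.6 and lay upstream at -145 bp, and in the other 5 the summit lay downstream of the start. Small nucleolar RNA genes had 6 members with a median of 281.8, led by snoRNA:Or-CD13 with 510.2, and pseudogenes had 3, led by CR42875 with 736.6. Ribosomal RNA genes had 0 members of 99 annotated genes. Counted by gene, 500 bp around the starts held a member summit in 250 of 3261 ncRNA genes (7.67%), 7 of 32 snRNA genes (21.9%), 15 of 290 tRNA genes (5.17%), 13 of 269 snoRNA genes (4.83%) and 9 of 268 pseudogenes (3.36%). For coding genes, those with a divergent partner included, it was 1427 of 13945 (10.2%). Copies of tRNA, snRNA and rRNA genes are near-identical, and the sources used here do not give how reads that map to several copies were treated. The 0 at ribosomal RNA genes is thus a count of called regions and not a sign that binding was absent.

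Most members stood at an isolated start. In 1445 (81.4%) no start of another gene lay within 1000 bp of the nearest start, and their median signal was 334.4. The rule leaves out summits near divergent coding pairs, which favours isolated starts. The share among all starts outside such pairs was not computed, so 81.4% is a description only. In 126 (7.09%) the start belonged to a divergent pair that included a noncoding gene, either the nearest gene or its neighbour. Their median signal was 296.6 and their median position -73.5 bp. These included tRNA:Leu-TAG-1-2, asRNA:CR45928 with a signal of 2194 and lncRNA:CR44149 with 2125. In 146 (8.22%) another gene began on the same strand within that distance, with a median of 318.3, led by elav with 1909 and CG1142 with 1838. The other 59 had further arrangements and a median of 293.1, led by Alg3, which encodes a mannosyltransferase, with 1603. By the sequence under the summit, 881 members (49.6%) lay between genes, 423 (23.8%) in an intron of the gene whose start was nearest, 350 (19.7%) in an exon and 122 (6.87%) in an intron of another gene. The members in an intron of their own gene had the highest median signal, 388.1, and 299 of them were at alternative starts. Those in exons had the lowest, 283.8.

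Coding genes without a divergent partner were occupied less often than genes with one. Of 8893 coding genes with no start in a divergent coding pair, 1276 (14.3%, exact 95% interval 13.6 to 15.1) had an optimal summit within 500 bp of a start. Of 5052 genes in such pairs, 2193 (43.4%, interval 42.0 to 44.8) had one, an odds ratio of 0.218 (Fisher's exact test, two-sided, p = 1.2e-309). In the replicate lists the shares were 14.6%, 14.8% and 13.4% without a partner and 45.5%, 44.6% and 41.4% with one. The groups did not overlap. The difference was 29.6 ± 1.45 percentage points (SD, n = 3), with an exact two-sided sign-flip permutation p of 0.25, the smallest that 3 replicates can give. A summit between paired starts can count for both genes of the pair, which is not so for most genes without a partner. With the main start alone the shares were 11.8% and 40.0%. The share rose with the number of annotated starts, from 9.60% of 6791 genes without a partner that have 1 start to 22.6% of 1436 with 2 and 44.9% of 666 with 3 or more, while among genes with a partner it went from 39.2% to 48.8% and 61.2%. More starts also cover more sequence. By chromosome arm, a member summit lay at 14.1% of genes without a partner on 2L, 14.5% on 2R, 14.2% on 3L, 13.0% on 3R, 16.3% on X and 20.7% on the small chromosome 4, where this is 12 of 58 genes.

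**Figure D3:**
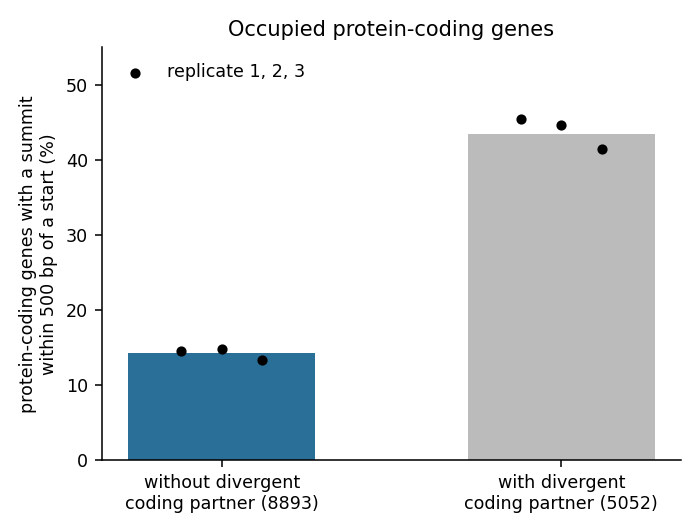
Share in percent of protein-coding genes with an optimal summit within 500 bp of a start, without and with a divergent coding partner; bars are the optimal list and points are the strongest regions of the 3 replicates. The points without a partner lie between 13.4% and 14.8%, and all points with a partner are above 41%.

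Within genes that have both kinds of start, the main start was bound more often than the alternative start. The comparison used 1213 coding genes with an alternative start over 1000 bp from the main start, both outside divergent pairs. The main start was bound in 19.2% and the alternative start in 15.0% of them. In 196 genes only the main start had a summit and in 145 only the alternative one, a ratio of 1.35 (exact McNemar test, two-sided, p = 0.00669), while 37 genes had both and 835 neither. The replicate lists gave ratios of 1.35, 1.34 and 1.26, with exact p of 0.00653, 0.00770 and 0.0443. The order of the starts along the gene went with this difference. In the 406 genes whose alternative start lies upstream of the main start, the alternative start was bound in 20.2% and the main start in 13.5%. In the 807 genes whose alternative start lies downstream, these shares were 12.4% and 22.1%. These subsets were chosen after the values were seen and were not tested.

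Members had slightly lower signal than regions at divergent promoters. Their median was 329.0 against 357.1, and 47.7% of members but 53.3% of divergent regions lay above the median of all promoter regions, 341.7 (odds ratio 0.802, Fisher's exact test, two-sided, p = 0.00336). In the replicate lists the medians of members and divergent regions were 88.8 and 99.4 in replicate 1, 133 and 142 in replicate 2, and 113 and 120 in replicate 3. The divergent median was higher in 3 of 3 replicates, by factors of 1.12, 1.07 and 1.06 (exact sign-flip permutation p = 0.25, the smallest possible). By rank within each replicate's own list the odds ratio of lying above the promoter median was 0.757 in replicate 1 (exact p = 1.3e-04), 0.846 in replicate 2 (exact p = 0.0247) and 0.839 in replicate 3 (exact p = 0.0209). Leaving out a replicate, by keeping the optimal regions that the other replicates both have among their strongest, selects on signal itself and is no check of this difference. The odds ratios were then 0.882, 0.894 and 0.916 without replicates 1, 2 and 3 (exact p = 0.125, 0.181 and 0.282). Members were also less often found in all 3 replicates. Of them, 1360 (76.6%, exact 95% interval 74.5 to 78.5) overlapped a region among the strongest of each of the 3 replicates, against 1018 divergent regions (82.9%), an odds ratio of 0.674 (Fisher's exact test, two-sided, p = 2.6e-05). The part of the difference in signal in this result was not tested. Where a replicate had a region at a member summit, its own summit was a median of 17, 15 and 6 bp away in replicates 1, 2 and 3.

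Bound promoters held the DRE, the BEAF-32 core, Motif 1, Ohler motif 7 and the CTCF core more often than unbound promoters of the same kind. The 1069 coding members at main starts were compared with 7515 main starts of coding genes without a divergent partner and without an optimal summit, whose windows were centred at the median member position of -148 bp. Of 18 consensus sequences searched on both strands, 7 differed (38.9% of those tested, Fisher's exact test, two-sided, Benjamini-Hochberg adjusted over the 18), 6 higher and 1 lower. The 18 were chosen with earlier results of these data known, which limits this comparison and the later ones that use them. Ohler motif 7 was in 6.92% of member windows against 1.72% (odds ratio 4.26, adjusted exact p = 1.0e-17). The DRE was in 4.02% against 0.652% (odds ratio 6.39, adjusted exact p = 2.6e-15) and the BEAF-32 core in 23.8% against 13.2% (odds ratio 2.04, adjusted exact p = 6.3e-17). The DRE contains the BEAF-32 core, and 298 of all members held the core without a DRE (16.8%). Motif 1 was in 12 windows (1.12%) against 8 (0.106%), an odds ratio of 10.7 (adjusted exact p = 2.3e-06), and the CTCF core in 5.05% against 2.81% (odds ratio 1.84, adjusted exact p = 6.1e-04). For comparison, among 13695 main starts of all coding genes the windows at the same position held the DRE in 1.02%, the BEAF-32 core in 14.6%, Motif 1 in 0.321%, Ohler motif 7 in 2.18%, the CTCF core in 2.68%, GAGAG in 12.5% and TATAAA in 20.3%. Matches differed in their place. In the members the DRE matches lay at a median of -49.5 bp, Motif 1 at -18.0 bp and Ohler motif 7 at -52.5 bp from the start, CTCF core matches at -137 bp and GAGAG at -130 bp. Only sequence within 50 bp of a member summit was searched. A median near -148 bp, like those of the CTCF core and GAGAG, can therefore follow from the windows alone. When the unbound windows were centred 50 bp upstream of the start, the calls for the DRE (odds ratio 1.15, adjusted exact p = 0.454), the BEAF-32 core (1.18, adjusted exact p = 0.0621) and Motif 1 (1.60, adjusted exact p = 0.219) were lost.

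For that reason the windows of both sets were also placed by the start, from 250 bp before to 50 bp after it, which makes them wider and counts a start once, a setting chosen after the data were seen. In it 12 of 18 sequences differed (66.7% of those tested), 8 higher and 4 lower at 993 bound main starts. The DRE was in 9.67% against 4.91% (odds ratio 2.07, adjusted exact p = 4.9e-08), the BEAF-32 core in 49.3% against 39.5% (1.49, adjusted exact p = 2.9e-08) and Motif 1 in 5.84% against 2.17% (2.80, adjusted exact p = 1.4e-08). Ohler motif 7 was in 18.1% against 7.90% (2.58, adjusted exact p = 2.5e-20) and the CTCF core in 12.3% against 8.66% (1.48, adjusted exact p = 7.4e-04). These 5 were higher in both settings. The GAGA element changed direction between these settings, which differ in the placement and width of the windows and in the members kept. It was lower at the summits, in 8.33% against 14.2% (odds ratio 0.547, adjusted exact p = 1.5e-07), and higher around the start, in 38.6% against 32.4% (1.31, adjusted exact p = 4.2e-04). With unbound windows 50 bp upstream its odds ratio was 0.541, and with summit windows widened to 100 bp on either side it was 0.770. The TATA box was in 214 windows against 16.7% by summit (1.25, adjusted exact p = 0.0237) and in 42.6% against 44.9% by start (0.910, adjusted exact p = 0.209). By start, the initiator was in 58.3% against 67.4% (0.677, adjusted exact p = 8.4e-08). The Zelda site did not pass with all replicates by summit (1.31% against 2.40%, adjusted exact p = 0.0540) and passed without replicate 2 (adjusted exact p = 0.0275), within 100 bp (8.3e-04), with unbound windows 50 bp upstream (0.0178) and by the start, in 5.04% against 6.87% (0.719, adjusted exact p = 0.0449). The base composition of the windows differed too, with a median GC content of 33.7% at the summits and 36.6% in the unbound windows, and its part in these results was not tested.

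**Figure D4:**
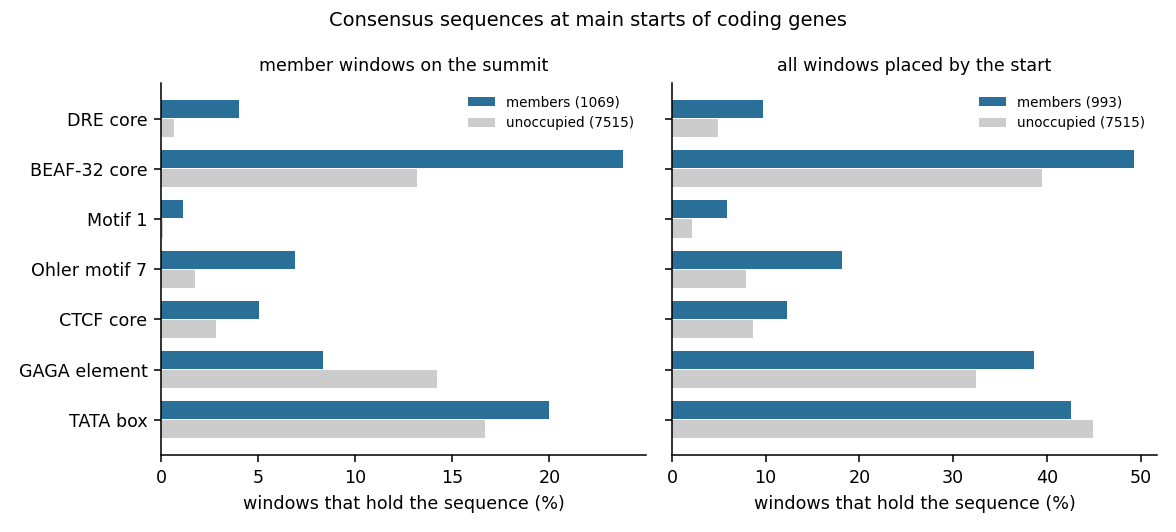
Share in percent of windows that hold each of 7 consensus sequences at main starts of coding genes, members in blue and unoccupied promoters in grey; left, member windows on the summit and unoccupied windows 148 bp upstream of the start; right, all windows from 250 bp before to 50 bp after the start. The upper 5 sequences are higher in members in both panels, and the order of the GAGA element and of the TATA box differs between panels, whose windows differ in width.

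Compared with the summits at divergent promoters, the members held the DRE, the BEAF-32 core and Ohler motifs 6 and 7 less often. Of the 18 consensus sequences, 7 differed (38.9% of those tested), 2 higher and 5 lower (Fisher's exact test, two-sided, Benjamini-Hochberg adjusted). The BEAF-32 core was in 19.5% of members against 26.3% of divergent summits (odds ratio 0.680, adjusted exact p = 2.7e-04) and the DRE in 2.76% against 5.37% (0.50, adjusted exact p = 0.00261). Ohler motif 7 was in 5.52% against 8.14% (0.659, adjusted exact p = 0.0166) and Ohler motif 6, another core promoter element, in 4 windows (0.225%) against 16 (1.30%) (0.171, adjusted exact p = 0.00261). The TATA box was in 20.2% against 23.9% (0.802, adjusted exact p = 0.0386), a call that was lost without replicate 1, 2 or 3 (adjusted exact p = 0.0994, 0.0533 and 0.0814). The GAGA element was higher in members, in 10.2% against 7.25% (1.46, adjusted exact p = 0.0166), as was the CTCF core, in 4.84% against 2.69% (1.84, adjusted exact p = 0.0137). Motif 1 was in 0.732% against 0.977% and did not pass (adjusted exact p = 0.746). Over the replicate lists the member windows held the BEAF-32 core in 18.8% ± 1.37, the DRE in 2.43% ± 0.342, GAGAG in 10.9% ± 0.678 and the CTCF core in 4.89% ± 0.518 (SD, n = 3). The median GC content was 33.7% in the members and 31.7% at the divergent summits. The members here include 490 at alternative starts of coding genes and 217 at noncoding genes. Coding members at main starts alone held the DRE in 4.02%, the BEAF-32 core in 23.8%, Ohler motif 7 in 6.92%, GAGAG in 8.33% and the CTCF core in 5.05%. At alternative starts these shares were 1.02%, 13.7%, 4.08%, 13.3% and 4.29%. The part of this mix of starts in the differences from divergent summits was not tested. With windows of 25 bp to either side, 2 sequences remained lower and 0 higher, and with 100 bp the CTCF core did not pass (1.25, adjusted exact p = 0.226).

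Members at main starts held the DRE and the BEAF-32 core more often than members at alternative starts, in a comparison added after the data were seen. Between 1069 coding members at main starts and 490 at alternative starts, 3 of 18 sequences differed (16.7% of those tested). The DRE was in 4.02% at main starts against 1.02% at alternative starts (odds ratio 4.07, adjusted exact p = 0.00710 by Fisher's exact test) and the BEAF-32 core in 23.8% against 13.7% (1.97, adjusted exact p = 5.5e-05). The GAGA element was in 8.33% against 13.3% (0.594, adjusted exact p = 0.0199). Ohler motif 7, at 6.92% against 4.08%, did not pass with all replicates (adjusted exact p = 0.106) and passed without replicate 3 (adjusted exact p = 0.0422). Within 25 bp of the summit the calls for the DRE (adjusted exact p = 0.750) and the GAGA element (adjusted exact p = 0.596) were lost.

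All hexamers were then counted in the same windows as for the bound and unbound main starts, also after the data were seen. Of 2080 hexamers, with both strands as 1, 159 differed (7.64% of those tested, Fisher's exact test, Benjamini-Hochberg adjusted), 85 higher and 74 lower. The first was CGATAG, an extension of the BEAF-32 core, in 10.3% of members against 2.57% (odds ratio 4.35, adjusted exact p = 2.5e-24). TATCGA, in 12.5% against 4.75%, and ATCGAT, in 9.26% against 3.77%, are parts of the DRE. ACACTG, in 8.61% against 3.63%, is part of Motif 1, and ACTATC, in 8.04% against 2.93%, and CAACAC, in 8.98% against 4.24%, were also among the highest. GGCCAA, in 2.53% against 6.65%, led those that were lower, followed by GAGCCA, in 1.12% against 4.14%. The median GC content was 33.7% in the member windows and 36.6% in the unbound windows. Its part in these calls was not tested. With windows placed by the start, CGATAG was in 23% against 12.2% (odds ratio 2.14, adjusted exact p = 2.4e-15), ACACTG in 26.6% against 14.3% (2.18, adjusted exact p = 5.9e-18) and ACAGTG in 22.5% against 10.8% (2.39, adjusted exact p = 5.4e-19), and GGCCAA remained lower (0.678, adjusted exact p = 0.00154). Without replicate 2 the number of lower hexamers was 49.

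Among gene lists of over 10 genes without a partner, the largest shares of bound genes were those of cytosolic ribosomal proteins and of the Polycomb and trithorax groups. The lists were chosen with earlier results of these data known, so the counts are descriptions. Of all coding genes without a divergent partner, 1275 of 8893 had a member summit at a start (14.3%). Cytosolic ribosomal protein genes had 23 of 37 (62.2%), with a median signal of 444.8 against 329.1 for all members at coding genes. RpL23A was the strongest with 966.5, and 395, 287 and 270 in the replicates. RpL24 followed with 831.2, and 272, 278 and 286 in the replicates. RpS30 was the weakest of the 23 with 191.8, and 57.2, 85.7 and 79.6 in the replicates. At RpL22 and RpS27A the start nearest to the summit belonged to another gene. The mitochondrial ribosomal proteins had 3 of 15, led by mRpL19 with 281.7. Translation factors had 7 of 26 (26.9%), led by eIF6 with 2194, where the nearest start was that of asRNA:CR45928, and by eEF1gamma with 1062 (327, 409 and 344 in the replicates). eIF4A is not among these, because another of its starts lies in a divergent coding pair and the gene counts as having a partner. The other basic machines lay near the share of all genes. Aminoacyl-tRNA synthetases had 2 of 10, led by AlaRS with 224.9, Mediator subunits 1 of 6, proteasome subunits 3 of 22, led by Rpn11 with 436.6, respiratory chain and ATP synthase subunits 5 of 43, led by ND-13B with 367.2 and ATPsynB with 341.9, and V-ATPase subunits 2 of 19, led by Vha16-1 with 397.6.

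Polycomb and trithorax group genes had 6 of 11 (54.5%). Besides tna and ph-p these were ph-d with a signal of 320.0, Psc, another Polycomb complex subunit, with 311.5, the remodeller gene kis with 237.5 and pho, which encodes a DNA-binding Polycomb protein, with 235.0. Of the architectural protein genes, 3 of 5 were bound, and they were BEAF-32 with 478.7 (148, 183 and 156 in the replicates), CTCF with 289.4 and mod(mdg4) with 196.0. Cell cycle regulators had 7 of 14, led by CycE, the G1 cyclin of S phase entry, with 989.9 (254, 396 and 343 in the replicates), the checkpoint kinase gene grp with 388.2 and fzr with 363.7. The single gene of SR proteins and splicing kinases without a partner, tra2, was bound with 204.3. With a promoter window of 250 bp the cell cycle count was 3, the Notch count below was 2 and the ecdysone count was 1.

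Developmental lists were mixed. Notch pathway and E(spl) complex genes had 5 of 11 (45.5%) with a median signal of 732.4, and these were E(spl)m3-HLH with 1459 (341, 568 and 554 in the replicates), where the nearest start was that of lncRNA:CR43644, numb with 1107 (265, 480 and 407), E(spl)m7-HLH with 732.4 (121, 89.3 and 228), N with 239.2 and fng with 203.5. Ecdysone response genes had 4 of 9 (44.4%), with E23 at 1809 (485, 766 and 573 in the replicates), the nuclear receptor gene Eip75B at 1072 (205, 516 and 356), EcR, the ecdysone receptor, at 225.8 and Eip74EF at 194.5. Hox genes and cofactors had 1 of 9, which was Dfd with 365.1, and gap and pair-rule genes 1 of 16, which was bcd with 565.6. Segment polarity and signalling ligand genes had 0 of 13. The lowest shares other than that list's were those of receptor and cuticle genes. Odorant, gustatory and ionotropic receptors had 1 of 153 (0.654%), which was Ir67c with 197.7, and cuticle proteins 1 of 107 (0.935%), which was Cpr72Eb with 201.5. With windows of 250 and 1000 bp the receptor count was 0 and 3, and the cuticle count 0 and 6.

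**Figure D5:**
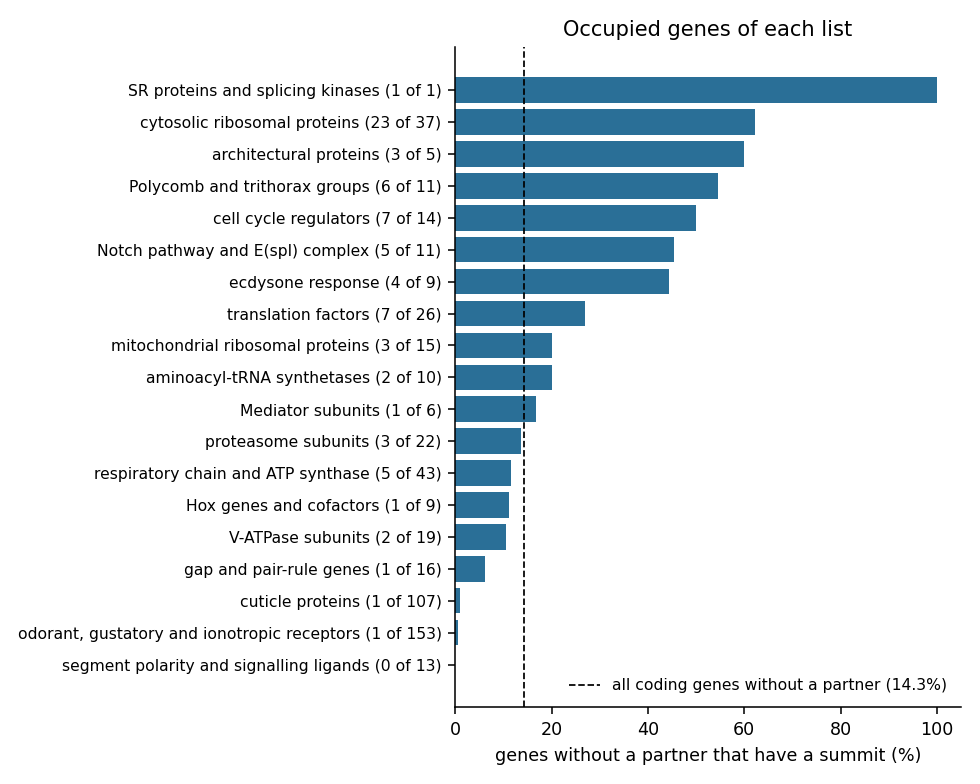
Share in percent of the genes of each list without a divergent coding partner that have a member summit within 500 bp of a start, with the counts beside each name; the dashed line is the 14.3% of all such coding genes. Cytosolic ribosomal protein genes stand at 62.2%, and the receptor and cuticle protein lists stand below 1%.

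Some genes held several members, and those named here were picked out after their values were seen. The 1776 summits named 1558 genes by their nearest start, of which 1365 had 1 summit, 176 had 2, 13 had 3, 2 had 4, 1 had 5 and 1 had 7. Rtnl1, which encodes a reticulon of the endoplasmic reticulum, had the 7 summits, and 2 of them had the same nearest start. The signals of the 7 ran from 231.7 at the main start, 32 bp downstream of it, to 2332 at an alternative start (668.2, 972.4 and 714.8 in the replicates). Ptpmeg2, a protein tyrosine phosphatase gene, had 5, from 290.3 to 1495 (379.8, 644.1 and 458.5 in the replicates for the strongest). dnc, which encodes a cyclic AMP phosphodiesterase, had 4, at 1398, 1358, 433.9 and 251.4, all upstream of alternative starts. Moe, which encodes moesin, had 4, at 597.4, 471.3, 391.9 and 232.3, with the strongest at the main start. At the limit of the rule, the member farthest from a start was at CG43066, with its summit 500 bp upstream and a signal of 471.8. The nearest summit outside the limit was 501 bp downstream of lncRNA:CR45937 and had a signal of 4023. In all, 87 members lay 450 to 500 bp from the start and 107 other summits lay 501 to 550 bp from one.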

How the data were processed

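Lists of regions with a signal value and a summit were used as the authors deposited them on build dm6. Per the deposited notes, lists were called against a control alignment for each replicate and on the pooled alignments, and the optimal list was thresholded on the irreproducible discovery rate. Caller, aligner and signal scale are not stated there or in the labels, and the lists on dm3 were not used. No read counts were used, so depth is unknown, and intervals (Clopper-Pearson, 95%) cover counting error only. Nothing in the labels says more of the replicates than that they are biological, and the optimal list was made from the same replicates as the replicate lists.

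Starts came from Ensembl release 115 without transposable elements, and sequence from the RefSeq assembly of dm6. The nearest start named the gene. Starts within 1000 bp defined the arrangement. Fisher's exact test, the exact McNemar test and the exact sign-flip permutation test were two-sided, with Benjamini-Hochberg adjustment over consensus sequences or hexamers and a threshold of 0.05. A constant of 0.5 was added to the cells of odds ratios with an empty cell. Members, the 19 gene lists and the consensus sequences were chosen with earlier results of these data known, and 10 listed names did not match the annotation. Genes are named at the 20 strongest members, the 5 strongest of each noncoding kind, the strongest of each list and arrangement, at alternative starts, the weakest and at the limit; further list members, genes with several summits and hexamers were named after their values were seen.

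Consensus sequences, searched on both strands, were the DRE core TATCGATA, the BEAF-32 core CGATA, which lies inside it, the TATA box TATAAA, the GAGA element GAGAG, the Su(Hw) core TGCATA, the E-box CANNTG, the homeodomain site TAATTA, the Zelda site CAGGTA, the E2F site (GCGC after thymine, thymine and a strong base), the initiator (TCA, a keto base, thymine and a pyrimidine), the GATA site (GATA after a weak base and before a purine), the downstream promoter element DPE (a purine and G, a weak base, a pyrimidine, any base but thymine, then thymine), CTTT between pairs of pyrimidines (TCT initiator), the CTCF core, Motif 1, Ohler motifs 6 and 7 and the tRNA B box. Alternatives were other windows, pair distances, main starts and window placements, the 3210 regions of higher signal and each replicate left out, by keeping optimal regions that both remaining replicates have among their 6420 strongest. Checks with known answers used simulated data, planted sites or the deposited regions. They covered overlaps, nearest starts, divergent classes, consensus and hexamer searches, Fisher's test with adjustment and the sign-flip test. The McNemar test, occupancy, arrangement, gene lists, windows placed by the start and left-out replicates were not checked in this way. Software was matplotlib 3.10.9, scipy 1.17.1, pandas 2.3.3 and numpy 2.4.6 under Python 3.11.15.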

Additional observations from a re-analysis of the deposited data

How the results depend on the processing

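There is 1 group, so conditions could not be compared. Pairing was by gene in the McNemar test and by replicate in the sign-flip tests. The lower occupancy of genes without a divergent partner, the excess of main over alternative starts and the smaller share of members found in all replicates kept their direction and their side of the threshold under every alternative run for them; the occupancy odds ratio was 0.165 among genes with 1 annotated start, a setting added after the data were seen. The number of members was 1169 with a window of 250 bp and 923 among the regions of higher signal. The upstream share was 76.1% with a window of 1000 bp, 85.6% among regions of higher signal and 83.3% to 84.0% with a replicate left out. The median position was -102 bp with 250 bp, -159 bp with 1000 bp, -176 bp among regions of higher signal and -166 to -156 bp with a replicate left out. The share at main starts was 76.0% and 70.8% with windows of 250 and 1000 bp, 70.4% among regions of higher signal and 72.4% when the 5′-most start was taken as main. The coding share was 88.5% and 85.3% with these windows and 87.7% to 88.3% with a replicate left out. The odds ratio of signal above the promoter median was 0.882 to 0.916 with a replicate left out and no longer passed; that setting selects on signal itself. Against divergent summits, 0 sequences were higher and 2 lower within 25 bp. Against unbound promoters, 2 were lower within 100 bp and within 25 bp, 5 with unbound windows 50 bp upstream, 4 with windows placed by the start, and 1 to 2 with a replicate left out. There the odds ratio turned for the TATA box (0.820 with unbound windows 50 bp upstream, 0.910 by the start), the DPE (0.707 by the start) and the GAGA element (1.31 by the start), and the settings by the start differ in the placement and width of the windows and in the members kept. Between main and alternative starts, 1 was higher and 0 lower within 25 bp. Hexamers numbered 186 higher and 233 lower within 100 bp, 31 and 8 within 25 bp, 146 and 172 by the start, and 49 to 65 lower with a replicate left out. For the other changes the cause was not tested. Read depth was not used, so weak regions that were not called cannot be judged.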
